A study of Mus musculus with 13 samples.

Results

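The prostaglandin genes described here were 6 listed genes: the cyclooxygenases Ptgs1 and Ptgs2, the prostaglandin E synthase Ptges, the prostacyclin synthase Ptgis, and the prostaglandin E receptors Ptger2 and Ptger4. Members were the probe sets whose platform annotation names only one of these genes. It named 9 probe sets for 5 of the 6 genes, out of 45037 probe sets and 18193 named genes in the table. No probe set is paired with Ptgs1 in the annotation used, so the expression of Ptgs1 was not analysed here. The cells were C2C12, a line of mouse skeletal myoblasts, profiled on Affymetrix expression arrays in a search for genes that oscillate during somite formation. Parallel flasks had reached 90% confluence in medium with 5% fetal bovine serum, were held for 24 h in 0.2% serum and were then returned to serum. The 0 h array holds cells at the end of the low-serum period, and the other 12 arrays hold cells at 0.5 to 6.0 h of renewed serum in steps of 0.5 h. Beside the single 0 h array, the time labels were pooled into an early window of 4 arrays (0.5 to 2.0 h), a middle window of 4 (2.5 to 4.0 h) and a late window of 4 (4.5 to 6.0 h).

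Prostaglandins are made from arachidonic acid, which phospholipases release from membranes. Cyclooxygenase turns it into an unstable intermediate, and terminal synthases such as Ptges and Ptgis turn this into prostaglandin E or prostacyclin. Ptgs1 is the enzyme that many tissues express steadily, while Ptgs2 is a classic immediate-early gene that serum, growth factors and cytokines induce. The receptors encoded by Ptger2 and Ptger4 both raise cyclic AMP when prostaglandin E binds. In muscle, prostaglandins are known to act on the growth and fusion of myoblasts and on regeneration.

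Every time point had a single array and there were no replicates, so p-values measure the spread within windows, which mixes technical variation with real change over time. The deposited values divide each probe set by an unstated value of its own, so they are ratios and carry no absolute level. Levels could therefore not be compared between genes, and neither the presence of myoblast markers nor the absence of markers of other cells could be checked. Array medians lay between 0.977 and 1.00, and the number of arrays limits the precision. The SD of log2 ratios over probe sets ran from 0.188 to 0.318 and was highest on the 0 h array. Against 0 h in the early window, 0 of 7 myoblast, 0 of 6 blood cell and 0 of 5 endothelial markers rose or fell, while 1 of 4 fibroblast markers fell (Pdgfra, at -0.42). Of all genes 1.46% rose and 1.81% fell. Median log2 changes were -0.19 (myoblast), 0.21 (blood cell), 0.15 (endothelial) and -0.26 (fibroblast), against -0.03 over all genes. In the late window the myoblast marker Cdh15 fell (-0.57), the blood cell marker Adgre1 rose (0.55), 0 endothelial markers changed and 3 fibroblast markers fell (-0.36 to -0.68). There, 8.8% of all genes rose and 9.9% fell. Between later windows, Myf5 (-0.60) and Dcn (-0.29) fell from early to middle, and Myf5 (0.53) and Chrna1 (0.20) rose from middle to late, the comparison in which Ptgs2 fell. The part of these markers in the results was not tested. In RNA of a whole culture, a change in the share of cells that express a gene and a change in its RNA per cell cannot be told apart. Differences below are on the log2 scale ± standard error from 1 limma fit over all genes, with Benjamini-Hochberg adjustment over 18193 genes (45037 for single probe sets) and a threshold of 0.05.

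By window means, Ptgs2 rose more than any other of the 18193 genes in the early window. It then fell more than any other from the middle to the late window. On single arrays Nr4a1 was higher at 0.5 and 1.0 h, at 26.0 and 25.9 times its 0 h value, beside 17.0 and 25.7 times for Ptgs2. Ptger4 rose with Ptgs2, reached its highest value at 1.0 h and stayed at 2.70 to 3.04 times its 0 h value from 2.5 h on. No comparison passed for Ptges, Ptgis or Ptger2 as gene means. Between the early window and 0 h, 2 of 5 measured members rose and 0 fell, where 1.46% of all genes rose and 1.81% fell. The median change of the members was 0.07, against -0.03 over all genes.

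**Figure D1:**
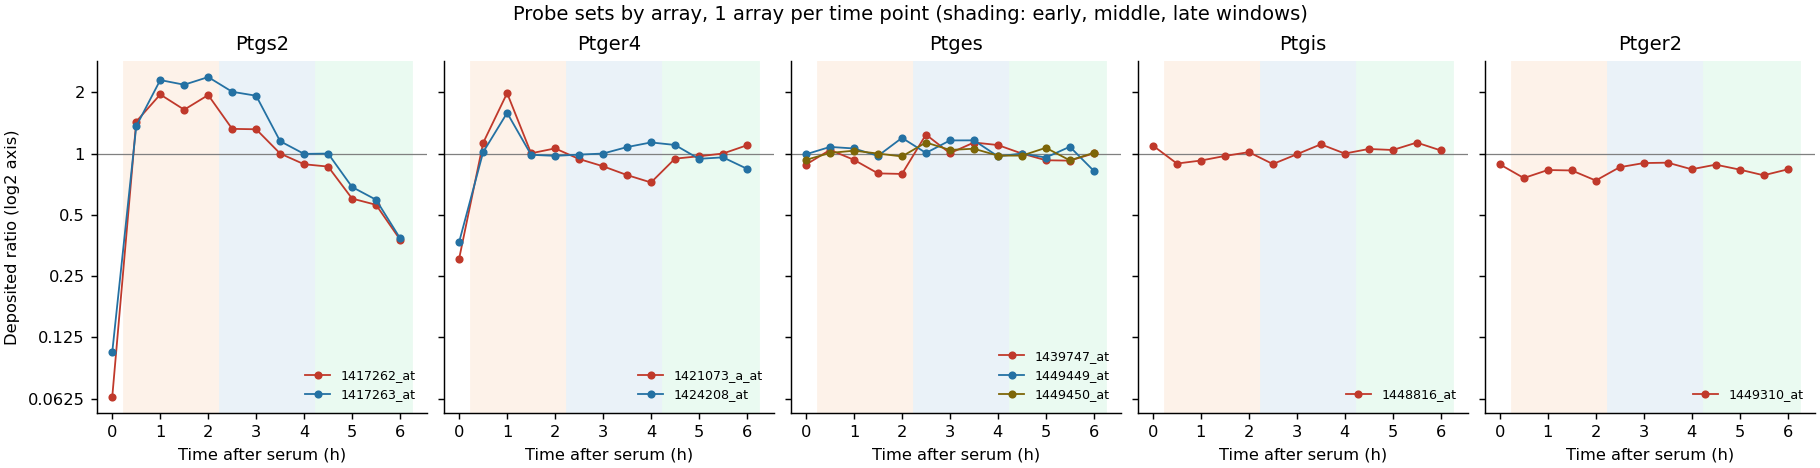
Deposited ratio (log2 axis) of each of the 9 probe sets against hours after the return to serum, 1 array per point, with the early, middle and late windows shaded. Both Ptgs2 probe sets start at 0.0639 and 0.106 and stand at 0.378 and 0.384 at 6.0 h; both Ptger4 probe sets peak at 1.0 h, and the other 3 genes stay near their starting values.

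Ptgs2, the inducible cyclooxygenase, was measured by 2 probe sets. The ratio of 1417262_at was 0.0639 at 0 h, then 1.44, 1.95, 1.64 and 1.94 at 0.5 to 2.0 h. It was 1.32, 1.32, 1.00 and 0.886 at 2.5 to 4.0 h and 0.863, 0.601, 0.560 and 0.378 at 4.5 to 6.0 h. The second probe set, 1417263_at, was at 0.106 at 0 h, 1.36, 2.30, 2.18 and 2.38 in the early window, 2.01, 1.92, 1.15 and 0.996 in the middle window and 1.00, 0.685, 0.593 and 0.384 in the late window. Every array after 0 h stood above the 0 h array on both probe sets, and the early and late arrays did not overlap. The share of all probe sets that separate in this way is not given here, so this is a description. The 2 courses ran together (Pearson r = 0.984 over 13 arrays, as a description). Averaged over both, Ptgs2 was already 17.0 times its 0 h value at 0.5 h. It formed a plateau of 25.7, 23.0 and 26.1 times at 1.0, 1.5 and 2.0 h.

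The early window exceeded 0 h by 4.50 ± 0.38 (limma, adjusted p = 7.21e-05), at mean log2 ratios of 0.90 in the early window and -3.60 at 0 h. Its 2 probe sets gave 4.76 ± 0.31 and 4.24 ± 0.43 (limma, adjusted p = 1.99e-06 and 2.46e-04). Of the 9 member probe sets, 4 rose and 0 fell, where 1.56% of all probe sets rose and 1.46% fell. Quantile normalization, which forces all arrays to 1 distribution, reduced it to 2.40 (limma, adjusted p = 0.0190). Leaving out any single array after 0 h gave 4.43 to 4.64.

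The stretch before the Ptgs2 transcript start is shown because this gene had the largest mean rise in the early window. That before Ptger4 is shown because it was the other member that rose. Sequences and starts are those of RefSeq on GRCm38.p6. Capitals mark matches, on either strand, to the C/EBP palindrome TTGCGCAA, the cyclic AMP response element core TGACG and the E-box CACGTG. The AP-1 site TGANTCA, the CArG box of serum response factor and the NF-kappaB site were also searched. The first line covers chr1:150099781-150100030 on the plus strand, bases -250 to -1. The second is a 30-base stretch, chr1:150100034-150100063, from base 4 to base 33 of the annotated transcript. The third covers chr15:5244188-5244437 on the minus strand.
Ptgs2, before the start: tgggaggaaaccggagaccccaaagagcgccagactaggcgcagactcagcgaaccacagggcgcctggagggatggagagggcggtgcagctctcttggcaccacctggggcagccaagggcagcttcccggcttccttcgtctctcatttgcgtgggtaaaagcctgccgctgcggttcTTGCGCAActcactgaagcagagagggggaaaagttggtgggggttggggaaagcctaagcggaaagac
Ptgs2, after the start: gtcaccactaCGTCACGTGgagtccgcttt
Ptger4, before the start: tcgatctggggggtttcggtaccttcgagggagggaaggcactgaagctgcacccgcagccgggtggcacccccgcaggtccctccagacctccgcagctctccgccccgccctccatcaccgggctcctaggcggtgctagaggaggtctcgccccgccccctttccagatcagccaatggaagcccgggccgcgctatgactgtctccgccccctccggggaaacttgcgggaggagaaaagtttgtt

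In Ptgs2 the C/EBP palindrome began at base -69. The core, on the opposite strand, and the E-box overlapped by 2 bases and began at bases 14 and 17 after the annotated start. Of all 32851 promoter windows of 300 bases (250 before and 50 after a start), 0.183% held the palindrome, 7.15% the E-box and 20.8% the core. The Ptger4 window held none of the 6 motifs in capitals or named above. It held 4 GC boxes (GGGCGG), a motif found in 35.7% of windows. GC boxes also began at base -170 in Ptgs2 and at bases -53 and -42 in Ptges. The windows of Ptges, Ptger2 and Ptgs1 held none of these 6 either; Ptgis had no sequence in the table. A match describes letters in a window and says nothing of binding.

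After 2.0 h Ptgs2 declined almost without a break. It stood at 19.8, 19.3, 13.03 and 11.4 times its 0 h value on the middle arrays and at 11.3, 7.80, 7.002 and 4.63 times on the late arrays. A straight line through the 9 arrays from 2.0 to 6.0 h had a slope of -0.58 ± 0.04 log2 units per hour, which corresponds to a halving time of 1.73 h. The residual SD around this line was 0.140. By probe set the halving times were 1.92 h (1417262_at) and 1.58 h (1417263_at). The stretch was chosen after its values were seen and the line is a description with no test. RNA synthesis and decay were not measured apart, so the halving time is not an RNA half-life.

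By windows, the decline passed between middle and late but not between early and middle. The mean log2 ratio of Ptgs2 was -0.73 in the late window and 0.35 in the middle window, a fall of -1.08 ± 0.24 (limma, adjusted p = 0.0107). It ranked last of 18193 genes in this comparison, in which 2.06% of genes fell and 10.3% rose. Ptgs2 was the single member called, as 0 of 5 rose and 1 fell. Leaving out 1 array gave -1.29 to -0.86. Of the member probe sets the 2 of Ptgs2 fell and 0 rose, where 1.83% of probe sets fell and 7.57% rose. Between middle and early the difference was -0.55 ± 0.24 (limma, adjusted p = 0.112), and 0 of 5 members were called, where 7.74% of genes rose and 14.4% fell. Of the member probe sets 1 rose and 2 fell there, where 6.35% of probe sets rose and 11.7% fell. One that fell was 1417262_at of Ptgs2, at -0.63 ± 0.20 (limma, adjusted p = 0.0360). Ptgs2 went on falling inside the late window, and its spread within windows was a residual SD of 0.418, beside a median of 0.102 over all genes.

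At the end of the course Ptgs2 had not come back to its 0 h value. The late window exceeded 0 h by 2.87 ± 0.38 (limma, adjusted p = 4.18e-04), the fifth largest rise of all genes. In this comparison 2 of 5 members rose and 0 fell, where 8.8% of genes rose and 9.9% fell. The 4 probe sets of Ptgs2 and Ptger4 rose and 0 fell, where 7.34% of probe sets rose and 7.33% fell. Quantile normalization ended this call (0.92, limma, adjusted p = 0.162). Both comparisons with 0 h share the same single array.

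Ptger4, which encodes a prostaglandin E receptor that raises cyclic AMP, was measured by 2 probe sets. Its probe set 1421073_a_at was at 0.305 at 0 h and at 1.13, 1.98, 1.00 and 1.06 on the early arrays. It was at 0.940, 0.866, 0.784 and 0.721 on the middle arrays and at 0.944, 0.970, 1.00 and 1.10 on the late arrays. Probe set 1424208_at was at 0.368 at 0 h, 1.02, 1.58, 0.986 and 0.974 in the early window, 0.988, 1.00, 1.08 and 1.13 in the middle window and 1.10, 0.942, 0.958 and 0.842 in the late window. Both put 0 h lowest and 1.0 h highest, and the other 11 arrays lay between. They moved apart after 2.0 h: toward 4.0 h the first declined while the second rose slightly, and toward 6.0 h the order turned round.

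As a mean of both, Ptger4 stood at 3.20, 5.29, 2.97 and 3.03 times its 0 h value in the early window. It then stood at 2.70 to 2.88 times in the middle window and at 2.85 to 3.04 times in the late window. The early window exceeded 0 h by 1.81 ± 0.22 (limma, adjusted p = 0.00133), rank 28 among rises of all genes. The late window exceeded it by 1.55 ± 0.22 (limma, adjusted p = 5.61e-04), again rank 28. Under quantile normalization these values were 1.19 and 0.97, both still past the threshold (limma, adjusted p = 0.00511 and 0.00218). Without the 1.0 h array the early value was 1.62.

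Neither step between neighbouring later windows passed for the gene mean. Ptger4 was at -0.34 ± 0.14 for middle minus early (limma, adjusted p = 0.0872) and at 0.08 ± 0.14 for late minus middle (limma, adjusted p = 0.774). Its 2 probe sets did not tell the same story for middle minus early. Probe set 1421073_a_at fell by 0.59 ± 0.16 (limma, adjusted p = 0.0204). Probe set 1424208_at was at -0.09 ± 0.13 (limma, adjusted p = 0.685), and the difference between them was not tested.

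The difference between Ptgs2 and Ptger4 within an array was -0.70 ± 0.50 in the late window and 0.66 ± 0.40 in the early window (log2, SD, n = 4 each), and the windows did not overlap. The shift, late minus early, was -1.36. This pair was chosen after its values were seen, so the shift is a description and its permutation p is not used. The same measure for the 2 receptors was tested and did not pass: Ptger4 minus Ptger2 was 0.23 ± 0.06 in the late window and 0.58 ± 0.36 in the early window (exact two-sided permutation p = 0.0571, n = 4 each). The test treats the successive times of a window as exchangeable.

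Ptger2 encodes the second receptor for prostaglandin E that raises cyclic AMP. Its single probe set, 1449310_at, lay under 1 on all 13 arrays, a form shared by 3018 of 45037 probe sets, so the value it was divided by was above each of its own. It was at 0.885 at 0 h, 0.758, 0.830, 0.826 and 0.737 in the early window, 0.857, 0.898, 0.902 and 0.837 in the middle window and 0.882, 0.834, 0.782 and 0.836 in the late window. As a description, all 4 early arrays lay below the middle arrays and below 0 h. The middle window differed from the early one by 0.15 ± 0.06 (limma, adjusted p = 0.0777), which passed after each array was centred on its median (0.17, limma, adjusted p = 0.0495). Early minus 0 h was -0.17, with a 95% interval from -0.37 to 0.03 (limma, adjusted p = 0.328).

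Ptges encodes the microsomal prostaglandin E synthase that is often induced together with Ptgs2 in inflamed tissue. It had 3 probe sets, and these did not follow each other (r from -0.07 to 0.57 over 13 arrays). Probe set 1439747_at was at 0.883 at 0 h, 1.04, 0.931, 0.799 and 0.794 in the early window, 1.24, 1.00, 1.13 and 1.10 in the middle window and 1.00, 0.927, 0.923 and 1.00 in the late window. The ratios of 1449449_at ran from 0.822 at 6.0 h to 1.19 at 2.0 h, and those of 1449450_at from 0.926 at 5.5 h to 1.13 at 2.5 h. None of the 3 came near the range of Ptgs2.

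As a gene mean, Ptges stayed within 0.985 and 1.20 times its 0 h value. Early minus 0 h was 0.07 ± 0.09 (limma, adjusted p = 0.689), with a 95% interval from -0.11 to 0.26. This interval lies below the 1.81 of Ptger4. It rests on the single 0 h array, and whether a dim signal hides a rise could not be assessed from ratios. In the middle window Ptges was at 0.13 ± 0.05 against the early window (limma, adjusted p = 0.0959), and late minus middle was -0.15 ± 0.05 (limma, adjusted p = 0.0868). The second of these passed after quantile normalization (-0.19, limma, adjusted p = 0.0456). Of its probe sets, 1439747_at rose by 0.33 ± 0.09 from the early to the middle window (limma, adjusted p = 0.0199). The others were at -0.004 ± 0.094 for 1449449_at and at 0.07 ± 0.07 for 1449450_at (limma, adjusted p = 0.983 and 0.524).

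Ptgis encodes prostacyclin synthase, a cytochrome P450 family enzyme. The ratio of its probe set 1448816_at was 1.09 at 0 h, 0.893, 0.924, 0.973 and 1.02 in the early window, 0.888, 0.992, 1.11 and 1.00 in the middle window and 1.05, 1.04, 1.13 and 1.04 in the late window. Early arrays lay below 0 h, and the late arrays lay on both sides of it. Early minus 0 h was -0.20 ± 0.11 (limma, adjusted p = 0.318), with a 95% interval from -0.43 to 0.03. Late minus 0 h was -0.04 ± 0.11 (limma, adjusted p = 0.855). For both Ptgis and Ptger2 no window comparison passed.

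**Figure D2:**
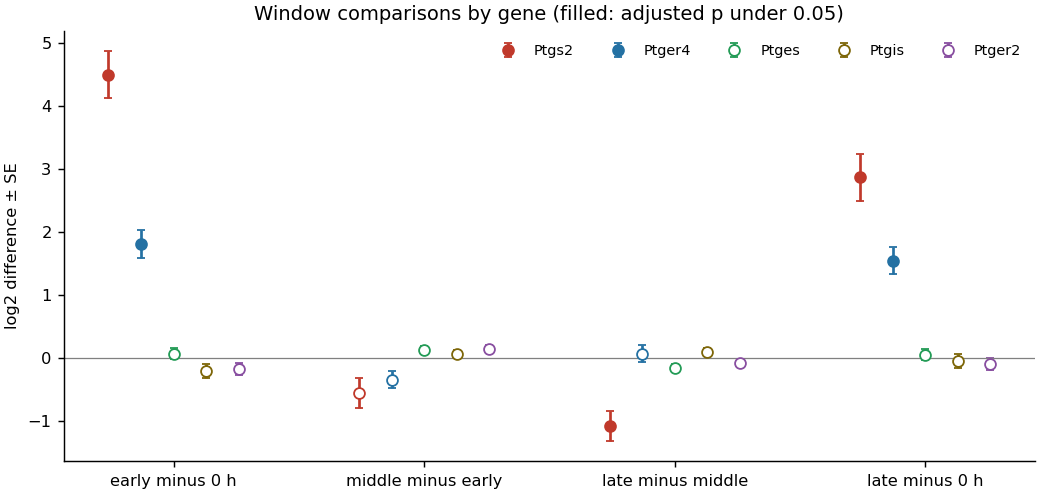
log2 difference ± standard error of each measured gene in the 4 window comparisons; filled points passed at adjusted p under 0.05. Ptgs2 (4.50 and 2.87) and Ptger4 (1.81 and 1.55) are the only filled points against 0 h, and Ptgs2 (-1.08) is the only one between later windows.

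Without windows, a smooth curve of time was called for 38% of all genes, so a call by itself says little of the members. Ptgs2 passed (limma F test, adjusted p = 2.18e-04). Ptger4 passed as well (limma F test, adjusted p = 0.0228), but not without the 0 h array (limma, adjusted p = 0.191). The values were 0.234 for Ptges, 0.311 for Ptgis and 0.406 for Ptger2 (limma F test, adjusted p). A rhythm with a period of 2 h, near that of the mouse segmentation clock, was called for 0 members and 0 of 18193 genes by limma, where 721 genes had an unadjusted p under 0.05. The fitted amplitudes were 0.51 for Ptgs2 and 0.32 for Ptger4 on the log2 scale (limma, adjusted p = 0.998 each; unadjusted p = 0.132 and 0.0814). Periods of 1.5 and 2.5 h called 0 genes, and a period of 3 h called 74 genes, none of them a member (limma, lowest adjusted p of a member 0.282).

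The 5 genes whose course over 13 arrays was most like that of Ptgs2 were Dusp5 (Pearson r = 0.962), Myc (r = 0.948), Dusp6 (r = 0.938), Timp3 (r = 0.916) and Gdap2 (r = 0.911). Dusp5 and Dusp6 encode phosphatases of the ERK kinases, Myc a growth regulator and Timp3 an inhibitor of matrix proteases. Their highest values over 0 h were 5.44, 5.83, 3.24, 6.12 and 1.34 times, all well under the 26.1 times of Ptgs2. For Ptger4 they were Mex3b (r = 0.935), an RNA-binding protein gene, Ankrd1 (r = 0.905) and Ccn2 (r = 0.905), and all 3 had their highest value at 1.0 h, like Ptger4. The courses nearest to the 3 other genes were those of Maob (r = 0.888), Ext2 (r = 0.878) and F8a (r = 0.876) for Ptges. They were Tnfrsf1a (r = 0.919), Gm12159 (r = 0.898) and Plekha8 (r = 0.895) for Ptgis, and Dlx1 (r = 0.927), Efs (r = 0.848) and Myo1f (r = 0.846) for Ptger2. All courses share the same 13 arrays, and the r values are given without a test. They include the single 0 h array and were not computed without it for the genes named above. Between Ptgs2 and Ptger4 themselves r was 0.822, and 0.406 without the 0 h array.

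**Figure D3:**
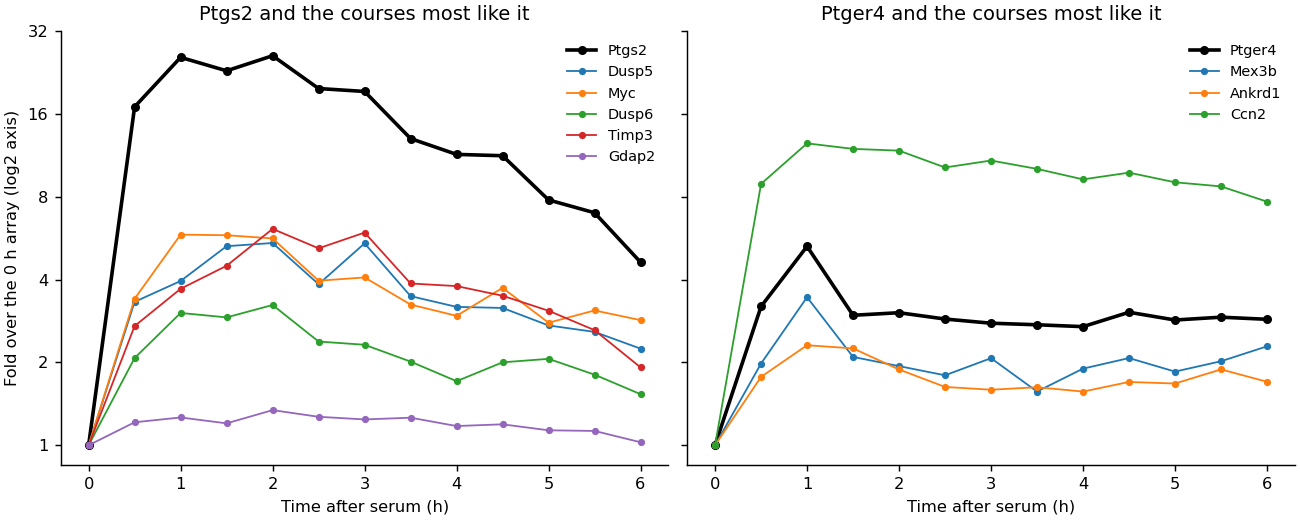
Fold over the 0 h array (log2 axis) against hours after serum for Ptgs2 and Ptger4 (black) and the genes whose courses correlate best with them, 1 array per point. Ptgs2 reaches 26.1 times and the genes most like it 1.34 to 6.12 times; Ptger4 and the 3 genes most like it are all highest at 1.0 h.

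The rest of the prostaglandin pathway was followed through lists of enzymes, receptors, transporters and regulators. Each list was chosen with earlier results of these arrays known and is described by its counts, beside the shares of all genes given above. Of genes listed for the release of arachidonate, 0 of 14 rose and 1 fell in the early window against 0 h, and 1 rose and 1 fell in the late window. Pla2g4a, the cytosolic phospholipase that feeds cyclooxygenase, was at -0.12 ± 0.15 for early minus 0 h (limma, adjusted p = 0.710). For this gene late minus 0 h was 0.23 ± 0.15, which was not called either. Of the 14 genes, 3 rose and 1 fell from early to middle, and 2 rose and 2 fell from middle to late. Leaving out 1 array moved all but the first of these counts. Pla2g4a rose from the middle to the late window by 0.66 ± 0.09 (limma, adjusted p = 0.00161), while Ptgs2 fell. Its preceding difference, middle minus early, was -0.31 ± 0.09 (limma, adjusted p = 0.0260), a call lost without the 0.5, 1.0, 1.5, 2.5 or 3.5 h array (limma, adjusted p from 0.0529 to 0.0838), after quantile normalization (limma, adjusted p = 0.0510) and with shifted windows (0.5 to 1.5, 2.0 to 3.5 and 4.0 to 6.0 h) (limma, adjusted p = 0.132).

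Mgll, a lipase that releases arachidonate from endocannabinoids, rose by 0.79 ± 0.13 in the late window against 0 h (limma, adjusted p = 0.00107). The secreted phospholipase Pla2g2e fell by 0.50 ± 0.12 in the late window against 0 h (limma, adjusted p = 0.0119), a call that quantile normalization ended (limma, adjusted p = 0.127). The early value of Pla2g2e was also -0.50, with a call (limma, adjusted p = 0.0420) that was lost without the 1.0, 1.5, 2.0, 3.5 or 5.0 h array (limma, adjusted p from 0.0557 to 0.0734), after quantile normalization (limma, adjusted p = 0.417) and with shifted windows (limma, adjusted p = 0.0946). For Pla2g12a the late window exceeded the middle one by 0.35 ± 0.09 (limma, adjusted p = 0.0211), but not without the 2.5 h or the 6.0 h array (limma, adjusted p = 0.0645 and 0.0606) or with shifted windows (0.25, limma, adjusted p = 0.201).

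Among the other prostanoid synthases, 0 of 8 rose and 0 fell in the early window, and 0 rose and 2 fell in the late window against 0 h. These were Cbr1, a carbonyl reductase that acts on prostaglandins (-0.37 ± 0.08; limma, adjusted p = 0.00745), and the aldo-keto reductase Akr1b8 (-0.32 ± 0.09; limma, adjusted p = 0.0251). Both calls were lost under quantile normalization (limma, adjusted p = 0.0722 and 0.163). Of the other prostanoid receptors, 0 of 8 rose and 0 fell early, and 0 rose and 1 fell late. The one that fell was Ptgfrn (-0.72 ± 0.13; limma, adjusted p = 0.00236), a membrane protein that negatively regulates the prostaglandin F receptor and is not itself a prostanoid receptor.

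Of genes of prostaglandin transport and breakdown, 0 of 6 rose and 0 fell in the early window against 0 h, and in the late window 2 rose and 2 fell, with a median of -0.09 beside -0.01 over all genes. Abcc4, a pump that exports prostaglandins among other substrates, was at 1.70, 1.87, 1.90 and 2.05 times its 0 h value on the late arrays. As a description, Abcc4 stood higher on each of these than the 0.884 to 1.27 times seen on the other 9 arrays. It rose by 0.91 ± 0.17 (limma, adjusted p = 0.00260). The organic anion transporter gene Slco3a1 rose by 0.40 ± 0.09 (limma, adjusted p = 0.00943). The prostaglandin reductase gene Ptgr1 fell by 0.40 ± 0.09 (limma, adjusted p = 0.00615). Ptgr2, another reductase, fell by 0.26 ± 0.08 (limma, adjusted p = 0.0362), but not without the 4.5, 5.0 or 5.5 h array (limma, adjusted p from 0.0548 to 0.0723) or after quantile normalization (limma, adjusted p = 0.156).

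**Figure D4:**
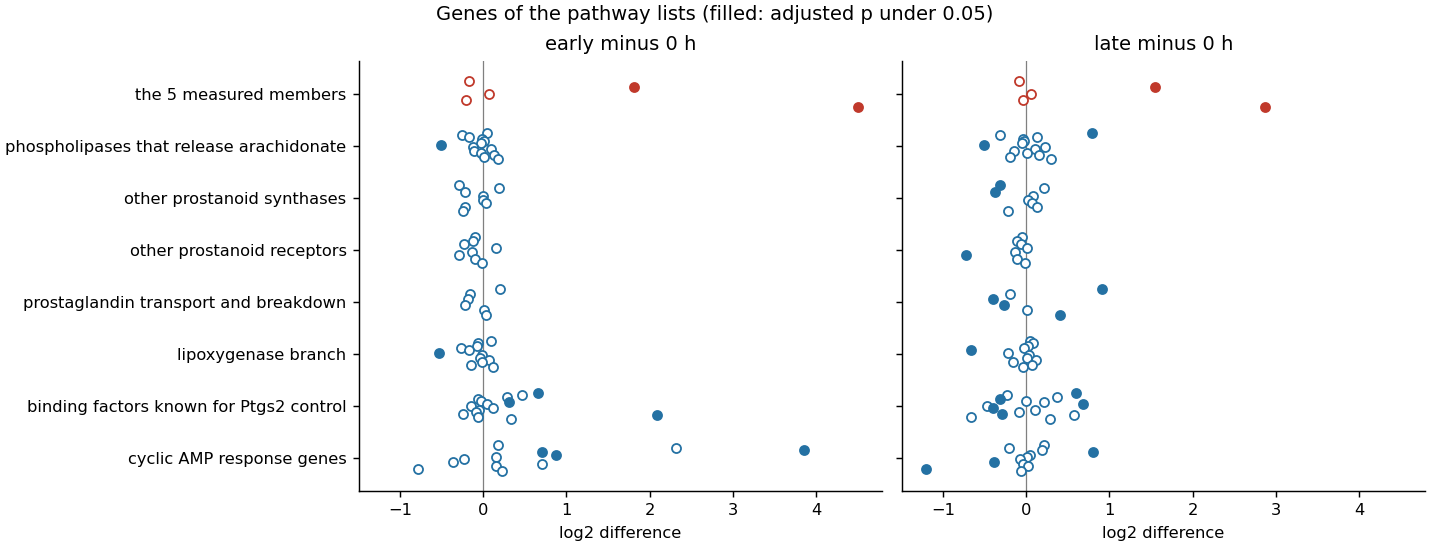
log2 difference of each gene of the pathway lists for early minus 0 h (left) and late minus 0 h (right), with the 5 measured members on top; filled points passed at adjusted p under 0.05. Ptgs2 lies farthest right in both panels (4.50 and 2.87), and in the early window the called genes of the enzyme lists are Pla2g2e (-0.50) and Alox8 (-0.53).

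In the lipoxygenase branch, which competes for arachidonate, 0 of 12 rose and 1 fell early, and 0 rose and 1 fell late. Alox5ap, the helper of leukotriene synthesis, fell by 0.66 ± 0.10 in the late window against 0 h (limma, adjusted p = 0.00101). Alox8 fell by 0.53 ± 0.12 early (limma, adjusted p = 0.0307), a call lost without the 1.0, 1.5 or 2.0 h array (limma, adjusted p from 0.0506 to 0.0548), after quantile normalization (limma, adjusted p = 0.290) and with shifted windows (limma, adjusted p = 0.132). Of the 12 genes, 2 rose and 1 fell from early to middle, and 1 rose and 2 fell from middle to late. Leaving out 1 array moved these counts. The leukotriene receptor gene Ltb4r1 rose by 0.29 ± 0.09 from the early to the middle window (limma, adjusted p = 0.0280). This call was lost without the 1.0, 1.5, 2.0, 3.0 or 4.0 h array (limma, adjusted p from 0.0513 to 0.0670) and with shifted windows (0.19, limma, adjusted p = 0.306). The lipoxygenase gene Alox15 rose by 0.28 ± 0.07 from the middle to the late window (limma, adjusted p = 0.0227), but not without the 2.5, 4.5, 5.5 or 6.0 h array (limma, adjusted p from 0.0557 to 0.0738) or after quantile normalization (limma, adjusted p = 0.0512) or with shifted windows (0.19, limma, adjusted p = 0.219).

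Among factors known to bind the Ptgs2 promoter or transcript, 3 of 15 rose and 0 fell in the early window, where 1.46% of all genes rose. Zfp36, which encodes a protein that binds AU-rich transcripts and speeds their decay, rose by 2.09 ± 0.46 (limma, adjusted p = 0.0290). It stood at 7.68, 6.18, 3.30 and 2.10 times its 0 h value on the early arrays, so its highest value preceded the plateau of Ptgs2. Atf4, a stress-induced bZIP factor, rose by 0.65 ± 0.10 (limma, adjusted p = 0.00512). The third was Elavl1, which encodes a stabilizer of AU-rich transcripts (0.31 ± 0.08; limma, adjusted p = 0.0486), named after its value was seen. The count was 2 with shifted windows, after leaving out probe sets ending in _x_at or _s_at or those with no array at a ratio of 1, and without any 1 of the later arrays other than those at 0.5, 2.5 and 4.0 h. It was also 2 after quantile normalization, where the call of Elavl1 was the one lost. From the early to the middle window, in which 14.4% of all genes fell, 0 rose and 6 fell (2 with shifted windows), among them Zfp36 (-1.24 ± 0.29; limma, adjusted p = 0.00868) and Zfp36l1 (-0.70 ± 0.15; limma, adjusted p = 0.00493). In the late window against 0 h, 2 rose and 3 fell (0 fell after quantile normalization, 5 without the 0.5 h array and 1 without the 5.0 or the 5.5 h array), and Hnrnpd, another AU-rich binding factor, rose by 0.68 ± 0.11 (limma, adjusted p = 0.00124).

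Of genes that cyclic AMP is known to induce, 3 of 12 rose and 0 fell in the early window (5 rose without the 2.0 h array), where 1.46% of all genes rose. The nuclear receptor Nr4a1 rose by 3.85 ± 0.58 (limma, adjusted p = 0.00512), a call that the fit with a variance trend ended (limma, adjusted p = 0.0613). Quantile normalization reduced it to 2.29. Nr4a3 rose by 0.88 ± 0.11 (limma, adjusted p = 0.00171), but was at 0.19 once its probe sets without an array at a ratio of 1 were left out (limma, adjusted p = 0.257). Fosb was at 2.32 ± 0.64 (limma, adjusted p = 0.0621). From the early to the middle window 0 rose and 7 fell (4 after quantile normalization or median centring, or without the 0.5, 1.0, 3.5 or 5.0 h array), where 7.74% of all genes rose and 14.4% fell, among them Nr4a1 (-3.07 ± 0.37; limma, adjusted p = 2.31e-04) and Fosb (-2.22 ± 0.40; limma, adjusted p = 0.00189). In the late window against 0 h, 1 rose and 2 fell. Rgs2, an inhibitor of receptor signalling, was among those that fell (-1.20 ± 0.36; limma, adjusted p = 0.0312), but not without the 4.5, 5.0 or 5.5 h array (limma, adjusted p from 0.0525 to 0.0552). Serum induces many of these genes through other routes too, and they were chosen with results of these arrays known.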

How the data were processed

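RNA of C2C12 cells at 13 time points was labelled with biotin and hybridised to 1 Affymetrix array each, per the labels' protocols. The deposited values are linear ratios to a reference of each probe set; RMA is named in the submitters' processing notes with no version, and the sources used here do not say how the ratios were formed. Of 45101 probe sets, 64 array controls were left out. Of the other 45037, 34945 had 1 gene symbol, 932 several and 9160 none. A gene's value is the mean log2 ratio over the probe sets that name it alone; these give 18193 genes. On 8 of the 9 member probe sets a single array stands at a ratio of 1; the Ptger2 probe set has no such array.

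All 13 arrays entered 1 limma 3.58.1 fit of window means (lmFit, eBayes, two-sided) in R 4.3.3, which lends the lone 0 h array the spread of the later windows. A natural cubic spline with 4 degrees of freedom tested a smooth course; a 2 h cosine and sine over a spline trend of 3 degrees of freedom tested a rhythm. The code was tested on simulated data. Exact permutation tests used scipy 1.17.1 and figures matplotlib 3.10.9. Motifs were searched on both strands of the RefSeq promoter windows. The members and lists were chosen with earlier results of these data known. The planned comparison of Ptgs2 with Ptgs1 was not run, and Ptgs2 is set beside Ptger4 as a description. Named list genes were up to 4 per list with the largest called change in any window comparison; the genes most like a member were the first 5 (Ptgs2) or 3 by Pearson r over all arrays. The listed genes Pla2g4b, Ptges3, Akr1b3, Ptgr3, Nfkb1 and Areg were not named by a probe set and were not analysed here. Alternatives were quantile normalization, centring on the array median, a robust prior with a variance trend, dropping probe sets ending in _x_at or _s_at, other windows, curves and periods, and leaving out each array. Leaving out probe sets at a ratio of 1 on 0 arrays was added after the data were examined.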

Additional observations from a re-analysis of the deposited data

Results flagged for a closer look

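Of 42 checks of 4 arrays within a window (gene means and probe sets of the 5 genes), 3 had an array whose gap to its nearest neighbour took up more than 0.829 of the window's range (Dixon's test). Chance flags about 5% of independent checks of values without a trend. The checks made here overlap: each gene mean averages probe sets that are also checked, and for Ptgis and Ptger2 it equals the single probe set. At 1.0 h, Ptger4 stood above the other early arrays, both as a gene mean (Dixon ratio 0.872, at a ratio of 1.77) and on probe set 1424208_at (0.913, at a ratio of 1.58). At 0.5 h, Ptgs2 probe set 1417263_at stood below the other early arrays (0.844, at a ratio of 1.36).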

How the results depend on the processing

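The rises of Ptgs2 and Ptger4 in the early window and of Ptger4 in the late window held under every setting run. So did the fall of Ptgs2 from the middle to the late window. The rises are all against the single 0 h array, which no setting could leave out for them. Of 32 results for members, 26 kept their side of the threshold in every setting. Most of the 26 passed in no setting, among them the rhythm test of each measured member. The only passing results among them were the rises and the fall just named. Among the 32 is the shift of Ptgs2 minus Ptger4, which changed side whenever an early or late array was left out. With an array left out, neither within-array permutation test can pass, so the side of Ptger4 minus Ptger2 was fixed there. Quantile normalization ended the late rise of Ptgs2 over 0 h (0.92) and brought Ptges past the threshold for late minus middle (-0.19); centring arrays on their medians did so for Ptger2, middle minus early (0.17). The smooth course of Ptger4 was lost with 3 spline degrees of freedom (adjusted p = 0.157) and a straight line (0.669), and that of Ptgs2 with a straight line (0.844), which cannot follow a rise and a fall. For the other changes the cause was not tested.

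Counts of called genes moved more. Early minus 0 h had 594, against 45 after quantile normalization and 218 with the shifted windows (0.5 to 1.5, 2.0 to 3.5 and 4.0 to 6.0 h). Late minus 0 h had 3402, against 1902 after quantile normalization. With shifted windows, middle minus early had 1507 in place of 4033 and late minus middle 1051 in place of 2240. A straight line called 3704 genes in place of 6911, and a period of 3 h called 74 in place of 0.

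Leaving out 1 array at a time gave 298 to 1431 genes for early minus 0 h, 1105 to 2570 for late minus middle, and adjusted p from 0.0129 to 0.191 for the smooth course of Ptger4. The shift of Ptgs2 minus Ptger4 stayed between -1.55 and -1.15. Of 38 calls of named list genes, 19 held in every setting and 0 reversed; shifted windows ended 11 and quantile normalization 8. No paired analysis was possible because the labels give no replicate numbers and each time point has 1 array. The ratios hold no signal over background, so a limit set by dim probe sets could not be assessed.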
